A study of Mus musculus with 2 samples.

Results

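Binding of CTCF in newborn mouse liver (0 days old, strain B6NCrl), measured by ChIP-seq, was examined at intergenic peaks whose summit base is written in lower case, the usual mark of repeated sequence, in the reference genome GRCm38 (the assembly that mm10 names). These are called soft-masked intergenic peaks here. A peak counted when it stood in the optimal list of the irreproducible discovery rate (IDR, a method that keeps peaks whose rank repeats between lists), lay on chromosomes 1 to 19 and in no gene of the GENCODE M21 annotation, had its summit 5 to 100 kb from the nearest transcript start and more than 5 kb from any gene end. Of the 57220 optimal peaks, 55759 lay on these chromosomes and 11422 met the distances. Of those, 2591 had a soft-masked summit (22.7%, 95% interval 21.9 to 23.5). The other 8831, with an upper-case summit at the same distances, were the comparison peaks. The series has 1 group of 2 replicates without a treatment. Both replicates carry the same biosample and donor labels and came from pooled, pulverized livers of several dissections, so their spread may be technical. Sex was not collected, per the labels.

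CTCF, a zinc finger protein, recognises a long asymmetric DNA motif and, with cohesin, anchors chromatin loops. In rodents, short interspersed elements of the B2 family are known to carry a sequence close to this motif and to have spread it through the genome as they were copied. B2 elements descend from a transfer RNA gene and hold the A and B boxes of an RNA polymerase III promoter. Each copy starts out alike and then drifts by mutation, so copies of different age differ in their letters. No repeat annotation was used here, so no peak is assigned to a family.

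The lower-case marks did not match the name "repeat-masked" evenly. Over the autosomes, 33.5% of known bases were in lower case, against 22.4% of all optimal summits on these chromosomes and 22.7% of those at the intergenic distances. The unbroken lower-case run around the summit had a median length of 56 bp (range 19 to 3051). Runs under 100 bp held 1790 of the 2591 summits, or 69.1%. For 666 of them (25.7%) the run was at most 30 bp, little longer than the 14-base CTCF core itself. All 32187 copies of the core word that was commonest under these peaks were in lower case, wherever in the autosomes they lay. Other core words stood in both cases, such as CCAGCAGAGGGCAG with 183 of 341 copies in lower case. How the marks were made was not tested, so the letters under a soft-masked summit may not be independent of how it was chosen. Another mask of the same assembly may select other peaks. Counts of core words in these peaks against the comparison peaks are given as a description only.

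The sequences below show what lay under these peaks. Each window holds the 14-base core in capitals with 33 bases on either side, read 5′ to 3′ in the direction of the core from GRCm38. Letter case in these windows sets off the core only and does not show the mask of the genome. For example, the masked run at the first peak was only 21 bp. The first 3 are the strongest soft-masked peaks with a core that matched the CTCF motif at every position. The next 3 are the strongest of the largest group of peaks with similar flanks, and the 2 after these are from the group ranked next in size. The last of the peaks belongs to a small group with another core. The final window is an unbound copy of the commonest core word, shown because its flanks hold the commonest base of all copies at every position. Unbound means that no optimal summit lay within 50 bp. The same flanks stood at other copies too, and a read that fits several places may not be assigned to 1. A lack of a summit there thus does not show a lack of CTCF.
2300002M23Rik, chr17:35578338-35578417, plus strand: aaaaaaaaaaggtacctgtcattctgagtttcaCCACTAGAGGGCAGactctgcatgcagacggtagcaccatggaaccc
Rpl9-ps8, chr3:144617191-144617270, minus strand: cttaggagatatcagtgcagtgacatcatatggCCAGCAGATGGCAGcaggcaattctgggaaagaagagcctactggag
Dhx35, chr2:158863991-158864070, minus strand: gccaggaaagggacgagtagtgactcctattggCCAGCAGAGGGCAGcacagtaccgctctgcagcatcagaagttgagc
Rps16, chr7:28344832-28344911, minus strand: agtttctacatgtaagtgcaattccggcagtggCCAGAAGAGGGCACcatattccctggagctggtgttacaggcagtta
Il17rd, chr14:27023030-27023109, minus strand: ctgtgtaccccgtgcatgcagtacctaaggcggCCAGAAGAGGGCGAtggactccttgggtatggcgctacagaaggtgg
AC154291.1, chr17:29762705-29762784, plus strand: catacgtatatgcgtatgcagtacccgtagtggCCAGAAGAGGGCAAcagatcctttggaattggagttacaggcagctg
Gm11195, chr11:78453816-78453895, plus strand: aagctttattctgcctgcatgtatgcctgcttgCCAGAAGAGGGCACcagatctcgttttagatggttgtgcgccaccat
Alg8, chr7:97361602-97361681, plus strand: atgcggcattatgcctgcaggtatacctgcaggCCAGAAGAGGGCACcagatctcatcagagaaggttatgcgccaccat
Gm47278, chr7:127498567-127498646, minus strand: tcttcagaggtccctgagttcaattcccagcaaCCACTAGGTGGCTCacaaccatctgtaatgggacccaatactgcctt
Unbound copy, chr1:180917518-180917597, minus strand: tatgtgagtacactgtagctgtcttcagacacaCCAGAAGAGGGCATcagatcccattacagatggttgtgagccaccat

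Each bound window is named by the gene with the nearest transcript start, and all lie outside genes. Per their deposited signals, the peaks near 2300002M23Rik, Rpl9-ps8 and Dhx35 reached 552.9, 455.0 and 449.8. The peaks of the largest flanking group near Rps16, Il17rd and AC154291.1 reached 363.7, 319.0 and 313.8. Those near Gm11195 and Alg8 reached 300.8 and 298.4, and the one near Gm47278 reached 191.1. The signal is the value the authors deposited for each peak. No source states its scale, and it was compared only within a list.

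Soft-masked intergenic peaks were weaker than the comparison peaks. Their median signal in the optimal list was 45.3 (95% interval 43.2 to 47.2), compared with 106.6 (102.4 to 110.7), a ratio of 0.425. In the list of replicate 1 the medians were 23.2 and 54.4 (ratio 0.427), and in that of replicate 2 they were 21.97 and 53.1 (ratio 0.414). The ratio was thus similar in both replicates, while single peaks overlapped widely. The quartiles were 25.7 and 92.0 for the soft-masked peaks, and 38.3 and 223.9 for the comparison peaks. Peaks are not replicates, and many share sequence, so no p-value is given. The intervals cover counting error over peaks only.

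**Figure D1:**
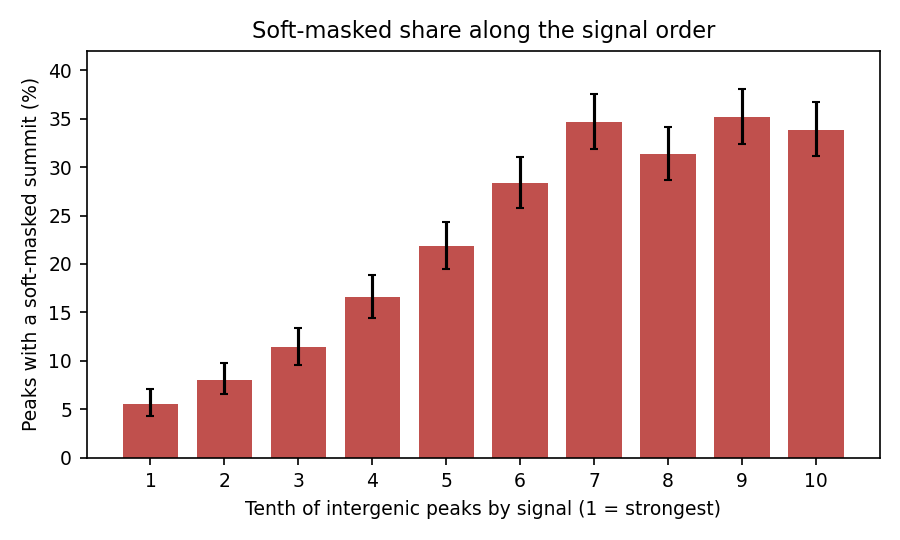
Bars give the percentage of peaks with a soft-masked summit in 10 equal classes of the 11422 intergenic peaks ordered by signal, with exact 95% intervals. The share was 5.60% in the strongest class and between 31.3% and 35.2% in the 4 weakest classes.

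The share of soft-masked summits changed along the order of signal. The 11422 intergenic peaks were ordered by signal and cut into 10 equal classes. In the strongest class, with signals from 300.04 to 655.96, 64 of 1143 summits were soft-masked (5.60%, 4.34 to 7.09). The share was 11.4% in class 3, 21.8% in class 5 and 34.7% in class 7, where signals ran from 39.5 to 55.7. It stayed between 31.3% and 35.2% from there to the weakest peaks. Of the strongest 10% of the whole optimal list, 63 peaks were soft-masked intergenic ones, which is 2.43% of these peaks, against 1067 comparison peaks, which is 12.1% of theirs.

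Both replicates held nearly all of these sites. A summit within 100 bp stood in both replicate lists for 2536 soft-masked peaks (97.9%, 97.2 to 98.4) and for 98.6% of comparison peaks, where the rate for all optimal peaks of these chromosomes was 97.1%. These lists end at 300000 peaks each and hold many weak calls. Within the strongest 57220 peaks of each list, as many as the optimal list holds, replicate 1 held 88.4% of the soft-masked peaks and replicate 2 held 88.1%. For the comparison peaks these shares were 93.5% and 93.4%. The optimal list was made from these same replicates, so the match does not measure repeatability independently. As a description across peaks, Spearman's rho between replicate 1 and replicate 2 signal was 0.910 over 2536 soft-masked peaks and 0.976 over 8711 comparison peaks, which span a wider range of signal.

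**Figure D2:**
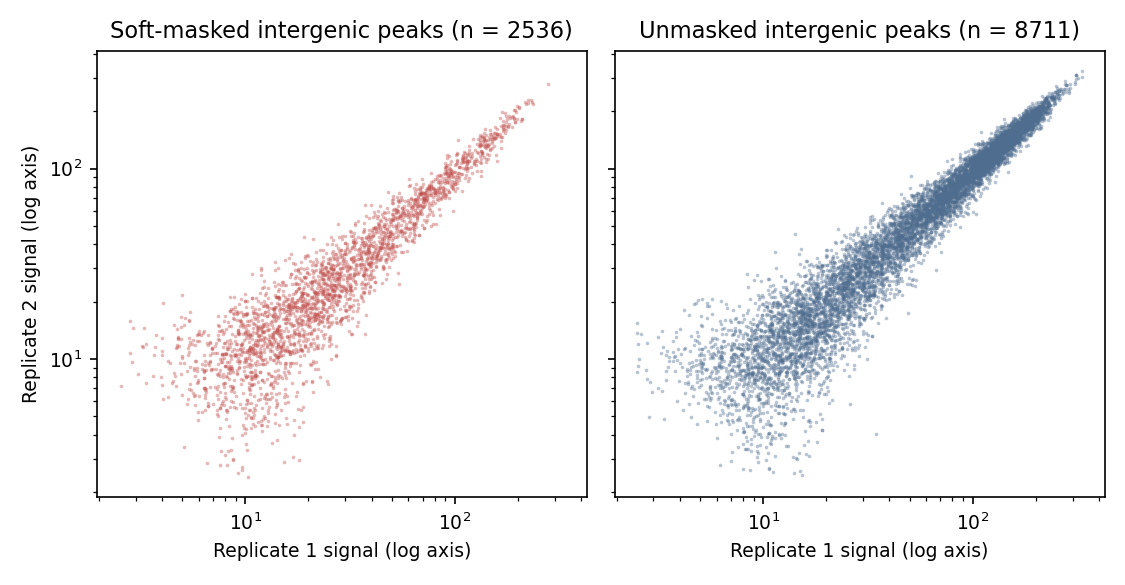
Each point is an intergenic peak with a summit in both replicate lists, placed by its deposited signal in replicate 1 (x axis) and replicate 2 (y axis), both on log axes, with soft-masked peaks on the left and comparison peaks on the right. In both panels the points lie along 1 line and widen at low signal, and the soft-masked peaks have few points at the strong end.

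The CTCF core was present under most of these peaks. The 14-base core was sought within 50 bp of the summit on both strands with at most 2 mismatches. It was found in 2158 of 2591 soft-masked peaks (83.3%, 81.8 to 84.7) and in 6790 comparison peaks (76.9%, 76.0 to 77.8), a difference of 6.40 points (4.68 to 8.05). Over all optimal peaks of these chromosomes the share was 71.2%, and in windows moved by 1 kb it was 2.55% and 2.76%. Since the commonest core word was in lower case at every copy, and some other words at nearly every copy, this difference may not be independent of the choice. The core centre lay within 10 bp of the summit in 70.8% of soft-masked peaks with a single best core, and in 72.2% of such comparison peaks.

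The soft-masked peaks held fewer exact cores and more cores with 2 mismatches. A core with no mismatch was found in 118 of them (4.55%, 3.78 to 5.43) and in 14.7% of comparison peaks, a difference of -10.2 points (-11.2 to -9.06). Cores with 1 mismatch made up 34.3% and 33.2%, and cores with 2 mismatches 44.4% and 28.97%. With at most 1 mismatch allowed, the difference in core share therefore turned to -9.02 points.

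At exact cores the medians were level within their intervals, and at imperfect ones they were apart. With 0 mismatches the medians were 218.7 (168.2 to 251.2) for soft-masked and 215.8 (208.2 to 224.2) for comparison peaks (ratio 1.01; 1.02 in replicate 1 and 0.994 in replicate 2). With 1 mismatch they were 54.6 and 146.8 (ratio 0.372; 0.376 and 0.378 in the replicates). With 2 mismatches they were 41.2 and 82.7 (0.498), and with 3 they were 32.8 and 47.9 (0.686). Of the 118 soft-masked peaks with an exact core, 89 lay in a masked run of at most 30 bp. Only 5 lay in a run of 100 bp or longer. The level medians at exact cores thus rest mostly on peaks in short masked runs. Whether exact cores in longer masked runs have the same signal as comparison peaks was not tested.

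**Figure D3:**
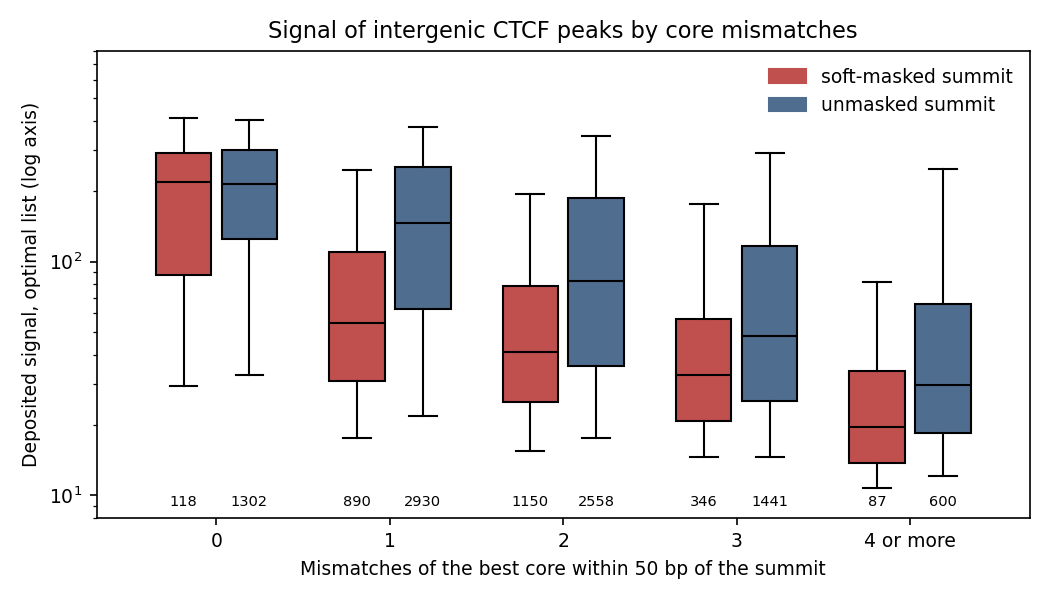
Boxes give the median and quartiles, and whiskers the 5th and 95th percentiles, of the deposited signal (log axis) for soft-masked (red) and comparison peaks (blue) by mismatches in the best core, with the number of peaks below each box. The medians are level at 0 mismatches (218.7 and 215.8) and apart at 1 mismatch (54.6 and 146.8). Most soft-masked peaks with 0 mismatches, 89 of 118, lie in masked runs of at most 30 bp.

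A single substitution made up most of the 1-mismatch class of the soft-masked peaks, but not of the comparison peaks. Substitutions are written as the letter of the motif, the position counted from 1 at the 5′ end of the core, and the base found. The motif allows C or T at position 5, written Y, and C or G at position 14, written S. Among peaks with a single best core and 1 mismatch, Y5A was carried by 657 soft-masked peaks (74.2%) and by 348 comparison peaks (12.004%). Over all peaks with a single best core of at most 2 mismatches, Y5A was present in 74.1% and 14.9%, and S14T in 36.6% and 6.08%.

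The median signals of peaks with the same substitution were then compared between the 2 sets. With Y5A as the only mismatch, the median signal was 54.5 (50.5 to 61.3) in soft-masked and 176.9 (157.0 to 202.6) in comparison peaks, a ratio of 0.308 (0.311 in replicate 1 and 0.317 in replicate 2). With S14T alone it was 54.4 (40.4 to 73.4) in 73 peaks and 84.4 (60.04 to 119.03) in 122, intervals that overlap. With C12A alone, in 21 and 233 peaks, it was 127.5 (36.7 to 205.5) and 152.3 (135.1 to 173.5), which overlap as well. Leaving out substitutions at position 5, the 1-mismatch medians were 57.6 over 208 soft-masked and 142.9 over 2439 comparison peaks, a ratio of 0.403. S14T made up 73 of these 208 and 122 of these 2439 peaks, so the pooled ratio mixes unlike sets of substitutions. Taken singly, the substitutions outside position 5 with an interval in both sets had intervals that overlapped, with ratios from 0.1898 for C12T to 0.837 for C12A. These classes fix only the substitution, and the other positions of the core and its flanks were free to differ. With the first 11 bases of the core held fixed, the order was the other way. Soft-masked peaks with CCAGAAGAGGG had a median of 47.98 over 1234 peaks, and comparison peaks with it 33.6 over 110. The commonest words with these bases are almost wholly in lower case in the genome. An upper-case summit can thus hardly lie on such a core, so these 2 sets are not alike.

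A handful of core words recurred. Among 2064 soft-masked peaks with a single best core, CCAGAAGAGGGCAT stood under 405 (19.6%), CCAGAAGAGGGCAC under 291 (14.1%), CCAGAAGAGGGCGC under 186 (9.01%), CCAGAAGAGGGCGT under 141 (6.83%) and CCAGAAGAGGGCAG under 76 (3.68%). They share the first 11 bases, CCAGAAGAGGG, all carry Y5A, and those ending in T also carry S14T. This 11-base stem was found in 1234 soft-masked peaks (59.8%, 57.6 to 61.9) and in 110 of 6600 comparison peaks (1.67%). The soft-masked peaks held 356 distinct core words, or 17.2 per 100 peaks, and the more numerous comparison peaks 2440, or 36.97 per 100. All copies of the commonest word were in lower case, and between 99.6% and 99.97% of the copies of each of the other 4 words were, so a summit on such a word could hardly fall in the comparison set.

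Signals differed among the 5 words. The median in the optimal list was 39.8 for CCAGAAGAGGGCAT and 41.98 for CCAGAAGAGGGCGT, which both end in T. For CCAGAAGAGGGCAC it was 47.1, for CCAGAAGAGGGCGC 55.5 and for CCAGAAGAGGGCAG 73.2. Each word spanned a wide range, for the commonest from 4.88 to 324.6. The few comparison peaks with the same words had lower medians for 4 of the 5. These were 28.9 over 31 peaks with CCAGAAGAGGGCAT, 31.7 over 15 with CCAGAAGAGGGCGT, 28.1 over 19 with CCAGAAGAGGGCAC and 37.4 over 14 with CCAGAAGAGGGCGC. For CCAGAAGAGGGCAG the comparison median was higher, 127.01 over 6 peaks. For the exact core CCAGCAGAGGGCAG the median was 201.1 over 38 soft-masked peaks and 203.6 over 33 comparison peaks. For the exact core CCAGCAGAGGGCAC it was 76.9 over 15 soft-masked and 148.3 over 26 comparison peaks.

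The strongest peak on the commonest word lay 23.0 kb from a start of Usp10, which encodes a deubiquitinase, with a signal of 324.6 (168.7 in replicate 1 and 157.4 in replicate 2). The next lay 9.71 kb from a start of Malat1, a nuclear long noncoding RNA, with 311.2 (165.4 and 145.7). On CCAGAAGAGGGCAC the strongest lay 8.87 kb from Ints1, a subunit of the Integrator complex (369.9), and 5.78 kb from Rps16, a ribosomal protein (363.7). On CCAGAAGAGGGCGC they lay near the pseudogenes Gm8900 (346.7) and Gm4945 (290.2). On CCAGAAGAGGGCGT they lay 20.9 kb from Stam2, an endosomal sorting protein (262.1), and 28.7 kb from Tnfrsf21, a death domain receptor (194.7). On CCAGAAGAGGGCAG they lay 14.6 kb from Usp7, a deubiquitinase (339.5), and near the pseudogene Gm11334 (319.6). The weakest of these 10, near Tnfrsf21, stood above the median of all optimal peaks on these chromosomes, 71.5. These 10 were picked for their high signal, and the medians of the 5 words ran only from 39.8 to 73.2.

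Most copies of the commonest word were not bound, and the bound share differed among words. On chromosomes 1 to 19, genes included, CCAGAAGAGGGCAT occurred 32187 times, and 2587 copies (8.04%, 7.74 to 8.34) lay within 50 bp of an optimal summit. Among the strongest 57220 peaks of replicate 1 the share was 7.89%, and of replicate 2 it was 7.79%. CCAGAAGAGGGCGT was bound at 10.6% of 7793 copies. The words without S14T were bound more often, CCAGAAGAGGGCAC at 38.5% of 3584 copies (36.9 to 40.1), CCAGAAGAGGGCAG at 47.7% of 773 and CCAGAAGAGGGCGC at 52.7% of 1491 (50.1 to 55.3). The exact core CCAGCAGAGGGCAG was bound at 79.8% of 341 copies (75.1 to 83.9). Its 183 lower-case copies were bound at 84.2% (78.04 to 89.1) and its 158 upper-case copies at 74.7% (67.2 to 81.3), intervals that overlap.

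**Figure D4:**
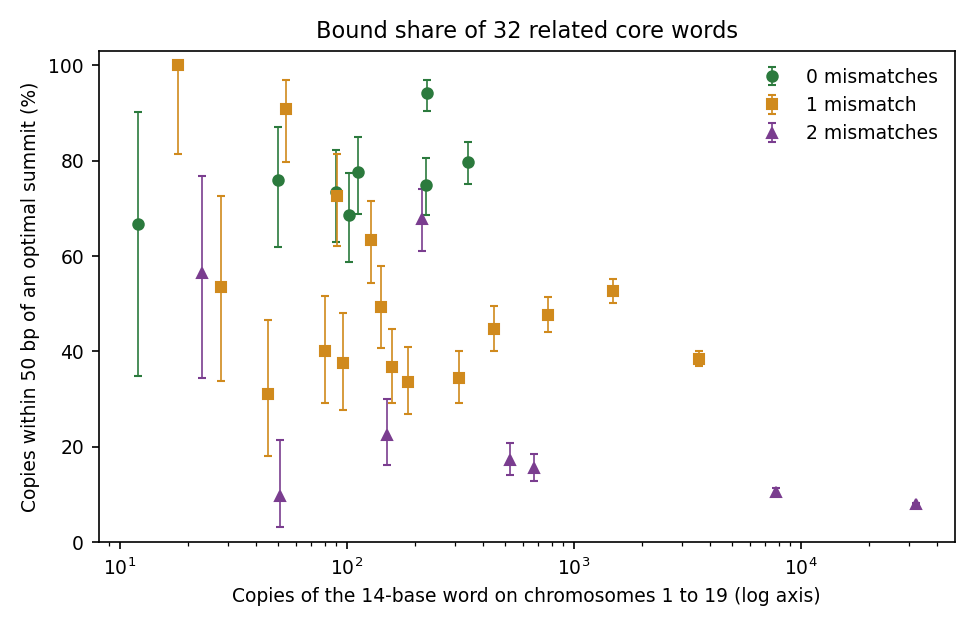
Each point is a 14-base word, placed by its number of copies on chromosomes 1 to 19 (log axis) and by the percentage of copies within 50 bp of an optimal summit, with exact 95% intervals, for the 32 words that share the stem apart from position 5 and differ at positions 5, 13 and 14. The 2 words with most copies, both with 2 mismatches, sit at 8.04% and 10.6%, and the words with 0 mismatches lie between 66.7% and 94.2%.

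These words form a natural series, and single bases went with the bound share. All 32 words that vary at position 5, at position 13 (A or G, both allowed) and at position 14 were counted, 50404 copies in all, of which 8074 were bound. Here a substitution gives the base of 1 word, the position, and the base of the word compared with it. For A5C, the word with C was bound more often in 8 of 8 pairs, by 22.6 to 52.6 points. For T14C it was higher in 8 of 8 pairs, by 18.1 to 50.01 points, and the interval of each of these 16 differences lay above 0. For T14G the share was higher in 8 of 8 pairs with the interval above 0 in 6. For A13G it was higher in 14 of 16 pairs, with the interval above 0 in 10 and differences from -6.67 to 68.9 points. Copies of related words often belong to the same repeated sequence, so neither copies nor words are independent.

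Unbound copies also lay in sequence that occurs many times. Within 100 bp of the middle of each core at the intergenic distances, the share of 36-base words found once in the chromosomes was taken. Its median was 99.4% at 472 bound and 52.4% at 7237 unbound copies of CCAGAAGAGGGCAT. A read that fits many places may not be assigned to 1, and how the authors treated such reads is not given in the sources used here. So the share was also taken over copies whose words were all unique. There CCAGAAGAGGGCAT was bound at 218 of 803 copies (27.1%, 24.1 to 30.4), compared with 6.12% of all 7709 at these distances. CCAGAAGAGGGCAC was bound at 47.1% of 291 such copies, CCAGAAGAGGGCGT at 46.6% of 238 and CCAGAAGAGGGCGC at 79.4% of 165 (72.4 to 85.3). The exact core CCAGCAGAGGGCAG was bound at 84.8% of 79 (74.97 to 91.9). Among unique copies the words ending in C thus again stood above their partners ending in T, 47.1% against 27.1% and 79.4% against 46.6%, with intervals that do not overlap.

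Bound copies of the commonest word differed from the others in their flanks. Over all 32187 copies, the commonest base at each of 66 flanking positions was taken. Since 29600 of these copies were unbound, the commonest bases are mostly those of unbound copies, and a better match there is partly built in. Bound copies matched it at a median of 25 positions (quartiles 21 and 39) and unbound copies at 57 (43 and 60). Copies with 50 or more matches were bound at 1.41% of 19723 (1.25 to 1.58), and copies with 20 to 29 matches at 35.9% of 3617 (34.3 to 37.4). The base just upstream of the core was G in 66.5% of bound and 11.6% of other copies. The base 2 positions upstream was C in 18.1% and 79.7%, and the base 10 positions upstream was C in 70.1% and 15.4%. These shares were taken over all copies, in unique sequence or not. At the intergenic distances only 3 of 4711 copies with 50 or more matches had all their words unique, so flanks and repeated sequence cannot be told apart there. Among unique copies, the bound share was 32.6% of 484 with 20 to 29 matches and 18.1% of 277 with under 20. With 30 to 39 matches, 9 of 26 unique copies were bound (34.6%, 17.2 to 55.7), compared with 7.79% of all 488 in that class. With 40 to 49 matches it was 1 of 13. The fall in bound share from 20 to 29 to 30 to 39 matches was thus not seen among the few unique copies. These flank classes and the series of 32 words were chosen after the data were seen.

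**Figure D5:**
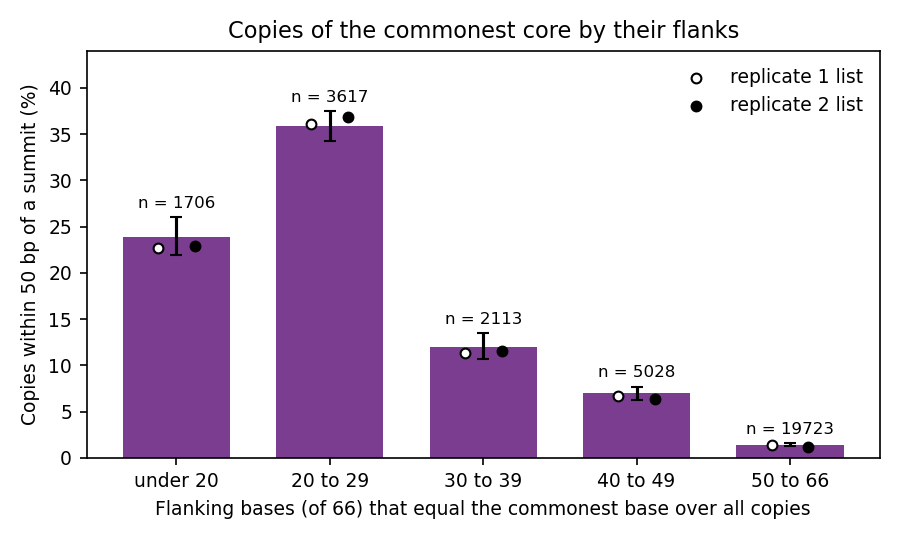
Bars give the percentage of the 32187 copies of the commonest core word that lie within 50 bp of an optimal summit (with exact 95% intervals), by how many of 66 flanking bases equal the commonest base over all copies. White and black points give the same share in the strongest peaks of replicates 1 and 2, and the share is 35.9% at 20 to 29 matches and 1.41% at 50 to 66.

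Beyond the core, many soft-masked peaks shared their flanks. With 33 bases on either side of the core, 2 peaks were linked when at least 70% of the 66 flanking bases matched without gaps, the core not counted. Of 2064 soft-masked peaks with a single best core, 959 had such a relative (46.5%, 44.3 to 48.6), against 230 of 6600 comparison peaks (3.48%, 3.06 to 3.96). At 60% identity the shares were 76.9% and 8.06%, and at 80% they were 15.9% and 1.50%. No core was counted for more than 1 peak. Summits were chosen by marks of repeated sequence, so this excess is a description as well.

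The relatives fell into 34 groups, of which 2 were large. The largest held 544 peaks on 19 chromosomes, with a median signal of 49.004 (24.2 in replicate 1 and 23.8 in replicate 2), and 69.5% of them carried the stem. The next held 304 peaks, also on 19 chromosomes, with a median of 31.6 (15.9 and 15.4), and 84.2% carried the stem. The commonest bases of these groups matched at 20 of 66 flanking positions, so the stem stood in differing surroundings. In both, the flank downstream of the core was more alike among peaks than the upstream flank. The median share of the commonest base per position was 77.0% downstream and 59.4% upstream in the largest group, and 86.8% and 54.3% in the next. The group next in size, of 24 peaks, had a median of 55.4 and, upstream of the core, the same commonest base as the largest group at 93.9% of positions. Of 2 groups of 8 peaks, 1 held no peak with the stem, and its commonest core was CCACATGGTGGCGC. The 1105 peaks in no group had a median signal of 55.2, and 9.50% of them held an exact core, compared with 1.47% and 0.658% in the 2 large groups.

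The B box of RNA polymerase III promoters was sought as GTTCNANNC on either strand within 150 bp of the summit, as a mark of sequence descended from transfer RNA genes. It was found in 609 soft-masked peaks (23.5%, 21.9 to 25.2) and in 917 comparison peaks (10.4%, 9.76 to 11.04), a difference of 13.1 points (11.4 to 14.9). In windows moved by 1 kb it was found in 18.0% and 15.4%. It was therefore more common under soft-masked peaks and less common under comparison peaks than in nearby windows of the same length. Summits were sorted by marks of repeated sequence, so this difference may not be independent of the choice and is a description as well. The 2 large groups differed, with the B box in 63.5% of the group of 304 and in 19.7% of the group of 544. A match of these letters is not evidence of transcription.

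Length of the masked run went with both signal and the B box. In runs under 100 bp the median signal was 51.6 and the B box was present in 15.9%. In runs of 100 to under 250 bp (661 peaks) these were 33.7 and 37.7%, in runs of 250 to under 500 bp (115 peaks) 32.4 and 55.7%, and in runs of 500 bp or more (25 peaks) 31.3 and 44%. The core was found in 82.8%, 84.7%, 80.9% and 92% of these classes, with intervals that overlap. In the 666 peaks with a run of at most 30 bp the median signal was 62.0 and 13.4% had an exact core. In the 1925 others it was 41.5 and 1.51%. Of the soft-masked peaks, 61.9% had every 36-base word within 100 bp of the summit unique, compared with 91.7% of comparison peaks. Among these, the medians were 51.5 over 1604 soft-masked and 112.8 over 8096 comparison peaks, so the lower signal was also seen in unique sequence.

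The strongest soft-masked peaks were mostly exact cores in short runs. Of the 12 with the highest signal, 11 had a run of at most 30 bp, 9 had an exact core and 2 had 1 mismatch, and none belonged to a group of relatives. The first lay on chromosome 17 from 35578224 to 35578574, 10.9 kb from a start of 2300002M23Rik, and ranked 70 in the optimal list, 102 in replicate 1 and 54 in replicate 2. The 11 others had signals from 393.8 to 455.0 and ranked from 550 to 1697 among the optimal peaks of these chromosomes. They lay near Rpl9-ps8, Gm22668, Ggcx, Dhx35, Gm5314, Ap3d1, 4921511I17Rik, Cdk18, Gm22773, Mir7078 and Gm10804. Ggcx encodes the gamma-glutamyl carboxylase that activates clotting factors in hepatocytes. Its peak lay 6.99 kb from a start (chromosome 6, 72407170 to 72407478) and had a signal of 452.7 (235.7 in replicate 1 and 218.3 in replicate 2) although its best core had 3 mismatches, and its run was 52 bp. Ap3d1, whose protein is a subunit of an adaptor complex for vesicles, had its peak 5.34 kb away (438.4). Cdk18, a cyclin-dependent kinase gene, had one 16.3 kb away (410.5).

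Soft-masked peaks with a liver or blood gene as their nearest protein-coding start were counted. Of 35 hepatocyte genes, 3 had such a peak, against 7 with a comparison peak. The peak near Pck1, the rate-limiting enzyme of gluconeogenesis, lay on chromosome 2 from 173175759 to 173176042, 22.8 kb from a start, with a signal of 67.2 (29.98 in replicate 1 and 37.4 in replicate 2), and belonged to the largest group of relatives. The peak near Prox1, a hepatocyte transcription factor, had 17.7, and the one near Cyp7a1, the rate-limiting enzyme of bile acid synthesis, had 16.1 and belonged to the group of 304. Of 30 blood-forming genes, 4 had a soft-masked peak and 8 a comparison peak. Runx1, a transcription factor of blood stem cells, had 2, at 332.6 kb (111.3) and 281.5 kb (24.6), both with a noncoding gene nearer. Gata2, a factor of blood progenitors, had 1 at 42.4 kb (59.9), and Kit, the stem cell factor receptor, had 1 at 74.99 kb (34.9). In all, 3 soft-masked and 22 comparison peaks were tied to the first list, 0.116% and 0.249% of each set. For the second these were 5 and 16 peaks, 0.193% and 0.181%. Counts this small do not separate the sets, and nearness does not show that a peak acts on a gene. The share of all protein-coding genes with such a peak was not taken. The counts thus do not show whether the listed genes have few or many.

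The soft-masked peaks lay slightly nearer to genes and to other peaks than the comparison peaks. The nearest transcript start was at a median of 16.4 kb (15.9 to 17.02), compared with 18.5 kb (18.004 to 18.97). The nearest other optimal summit was at a median of 7.36 kb (6.76 to 7.93), compared with 9.28 kb (8.90 to 9.63). The G and C share within 100 bp of the summit was 45.8% and 48.8%. By chromosome, the share of intergenic peaks with a soft-masked summit ran from 18.8% on chromosome 19 (14.5 to 23.7) to 29.02% on chromosome 5 (25.9 to 32.3). At the distance limit, the peaks just inside lay 5006 and 5008 bp from starts of Tbx19 and Gltp, with signals of 15.9 and 39.3. Those just outside lay 4994 and 4998 bp from Zc3hav1 and Rnf11, with 13.9 and 32.65.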

How the data were processed

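The authors deposited narrowPeak lists on mm10, per the labels: 1 per replicate, a pooled list that was not used here, and a conservative and an optimal IDR list, made from these lists and 1 further file of no named kind, per the text deposited with the samples. The signal of each peak is a column the authors deposited, and its scale is not stated. The sources used here do not give aligner, peak caller or thresholds. The labels name a control experiment, which was not analysed here. No read counts were used, so depth is unknown.

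All peak ends lay within the lengths of the 19 autosomes of RefSeq GRCm38.p6, whose lower-case letters served as the mask. No source used here says how that mask was made. Summits are peak start plus the deposited offset. The core search, grouping and intervals were tested on simulated data. Shares have exact (Clopper-Pearson) and differences Newcombe 95% intervals. Medians have order-statistic intervals. Named peaks are the 12 strongest, the 2 strongest per commonest core word and up to 3 per gene list, with a further Runx1 peak named after its value was seen. The values of 1 further peak of the blood-forming list are not reported here. The members, lists and alternatives were chosen with earlier results of these data known. Alternatives were the conservative list, stronger peaks, each replicate alone and other settings for mask, distance, core and identity. Python 3.11.15, numpy 2.4.6, scipy 1.17.1 and numba 0.67.0 were used.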

Additional observations from a re-analysis of the deposited data

How the results depend on the processing

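The 5 main values were recomputed under other settings, which gave 51 pairs of a value and a setting, with at most 12 settings per value. Of these pairs, 41 were planned and 10 added after the data were seen. In 43 pairs the value moved without a change of side, and in 1 with it. A move was a change by more than the spread (SD) of the 2 single-replicate values, which was at most 0.686 points for shares. Of the values that can change side, the lower median signal (ratio below 1) held in all 9 settings run for it, and the higher core share held in 11 of 12. The exception was at most 1 mismatch, with a difference of -9.02 points, since cores with 2 mismatches were then not counted. The masked share was 22.2% in the conservative list, 13.8% among peaks at or above the median signal, 18.9% with at least 50 of the bases within 50 bp of the summit in lower case, 22.1% at 10 to 100 kb from a start and 16.5% where every 36-base word was unique. The core share was 84.0% in the conservative list, 91.2% at or above the median signal, 82.9% with this mask, 38.9% with at most 1 and 96.6% with at most 3 mismatches, 78.4% within 30 bp, 85.0% within 100 bp, 84.4% in runs of 100 bp or longer and 82.2% in unique sequence. Its difference from the comparison peaks was 4.22 points at or above the median signal, 5.67 with this mask, 5.79 at 10 to 100 kb, 3.44 with at most 3 mismatches, 5.45 within 30 bp, 6.86 within 100 bp, 7.51 in long runs and 5.19 in unique sequence. The signal ratio was 0.661 at or above the median signal, 0.371 with this mask, 0.396 without the stem, 0.313 in long runs and 0.457 in unique sequence. The share with a relative was 29.1% at or above the median signal, 56.6% with this mask, 43.1% at 10 to 100 kb, 36.1% with at most 1 mismatch, 76.9% at 60% and 15.9% at 80% identity, 70.6% in long runs and 27.9% in unique sequence. Without replicate 1 or 2, the values ranged from 21.96% to 22.2% for the masked share, from 81.8% to 82.0% for the core share, from 5.17 to 5.57 points for its difference, from 0.426 to 0.435 for the ratio and from 46.5% to 47.5% for relatives. For the moved values the cause was not tested, except where a setting counts other peaks or cores by its construction. No paired analysis was possible because the series has 1 group. Depth is unknown, so weak sites may be missed in both sets.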
